A study of Mus musculus with 39 samples.

Results

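Interferon-stimulated genes varied widely among mouse breast arrays of the K5Cre genotypes of a Sleeping Beauty series, and the 9 arrays with the highest level were set beside the 9 with the lowest. A score was taken for each of the 27 K5Cre arrays as the mean log2 value of Ifit1, Isg15 and Irf7. Its 9 highest arrays are called interferon-high, its 9 lowest interferon-low, and the other 9 form a middle class. The 18 high and low arrays came from 17 animals, of 39 arrays from 30 animals in all. The arrays were thus chosen by the measured values of these 3 genes, and no label names the classes.

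Of the 27 K5Cre arrays, 19 from 15 animals were labelled Quadruple (SB/Tg/K5Cre/Bcat) and 8 from 8 animals Triple (SB/Tg/K5Cre). All were labelled breast. Sleeping Beauty is a DNA transposon used for insertional mutagenesis, and K5Cre is by its name a Cre recombinase under the promoter of keratin 5, a keratin of basal epithelium. The labels do not spell out SB, Tg or the Bcat allele, and give no age. No strain is stated, but the title identifiers of the Bcat +/- arrays below begin with C57. The Quadruple and Triple K5Cre genotypes share the elements SB, Tg and K5Cre, and differ in Bcat. The other 12 arrays were 3 breast arrays labelled Triple (SB/Tg/Bcat) from 2 animals, 2 of Bcat +/- breast masses from 2 animals, 3 ventral tumours of 1 Bcat +/- mouse, and 4 normal mammary glands from 4 transposon mice. Those 4 glands came from 2 Triple K5Cre, 1 Quadruple and 1 Triple Bcat animal.

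Interferons are secreted proteins that bind cell surface receptors and, through the JAK kinases, activate transcription factors such as STAT2 and IRF9. These act at the interferon-stimulated response element (ISRE) in the promoters of antiviral genes. Type II interferon acts through a different element, called GAS, and favours GTPases, chemokines and antigen presentation. Ifit1 encodes a protein that binds viral RNA, Isg15 a ubiquitin-like modifier, and Irf7 a transcription factor of the type I interferon genes.

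Some promoters of genes in the score or high in the interferon-high arrays are shown, chosen because they held the ISRE core. The core was searched as GAAA, any 2 bases and GAAA or, for the other strand, TTTC, any 2 bases and TTTC, in the 250 bases before and 50 after each RefSeq start of the mouse build GRCm38.p6. Capitals mark each match, overlapping matches run together, and every stretch reads 5′ to 3′ in the direction of the gene. Ifit1 is taken from chr19:34640760-34640838 (plus strand), Isg15 from chr4:156200850-156200921 (minus), Ifit3 from chr19:34583348-34583441 (plus) and Rsad2 from chr12:26456538-26456597 (minus). Cxcl10 is taken from chr5:92349068-92349127 (minus), Ddx60 from chr8:61928009-61928086 (plus) and Gbp2 from chr3:142620579-142620638 (plus). All lie upstream of the gene's start.
Ifit1: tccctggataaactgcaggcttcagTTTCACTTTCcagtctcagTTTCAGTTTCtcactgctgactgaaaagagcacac
Isg15: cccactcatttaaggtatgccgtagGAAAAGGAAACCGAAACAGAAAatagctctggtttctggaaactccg
Ifit3: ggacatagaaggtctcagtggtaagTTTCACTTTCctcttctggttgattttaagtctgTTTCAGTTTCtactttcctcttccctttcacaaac
Rsad2: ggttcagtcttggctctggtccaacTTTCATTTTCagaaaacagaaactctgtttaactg
Cxcl10: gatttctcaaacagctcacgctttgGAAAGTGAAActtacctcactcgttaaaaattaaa
Ddx60: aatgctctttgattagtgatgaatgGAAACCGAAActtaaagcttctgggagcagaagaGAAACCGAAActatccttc
Gbp2: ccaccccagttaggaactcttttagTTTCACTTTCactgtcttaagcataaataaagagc

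The Ifit1 promoter held 2 matches, Isg15 held 3 overlapping ones, and the Irf7 window held none. Of 14453 genes on the arrays with a RefSeq promoter, 524 (3.6%) held a match, as did 3.4% of all 32851 promoter sequences. Of the genes called higher in the interferon-high arrays (defined below), 90 had a promoter and 33 (36.7%) held a match. Of those called lower, 26 had a promoter and 0 held one. Antiviral effector genes held it in 14 of 34 promoters (41.2%), and GBP and IRG GTPase genes in 6 of 6. Sensors and MHC class I genes held it in 3 of 10 each, transcription factors in 2 of 7 and chemokines in 1 of 3. ISGylation genes held it in 0 of 3. The scanned windows of Oasl2, Xaf1, Slfn4, Ms4a4c, Cd274 and Oasl1 held no match upstream of the start. The GAS core TTCNNNGAA, the same on either strand, was in 8.6% of all genes' promoters, in 12.2% of those of the genes called higher and in 3 of 6 of the GTPase promoters. A match describes the letters only.

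The values are log2 intensities summarised by RMA, so a difference of 1 is a doubling. Ifit1 ran from 8.37 to 10.88 in the interferon-high arrays (median 9.50) and from 4.33 to 7.61 in the interferon-low arrays (median 6.63). Isg15 ran from 9.38 to 11.75 (median 10.21) against 6.35 to 8.63 (median 7.88). Irf7 ran from 8.55 to 10.57 (median 9.05) against 5.33 to 7.45 (median 7.01). None of the 3 genes overlapped between the classes, which the choice of the arrays largely fixes. The class means lay 3.59 apart for Ifit1, a 12.1-fold difference, 2.74 apart for Isg15 (6.66-fold) and 2.76 for Irf7 (6.75-fold), and these 3 values carry no test. Across the 27 arrays the 3 genes ran together, with pairwise correlations of 0.934 to 0.973 as a description. The probe set for Isg15 is also annotated to Gm9706. A score without it kept 9 of 9 high and 8 of 9 low arrays.

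**Figure D1:**
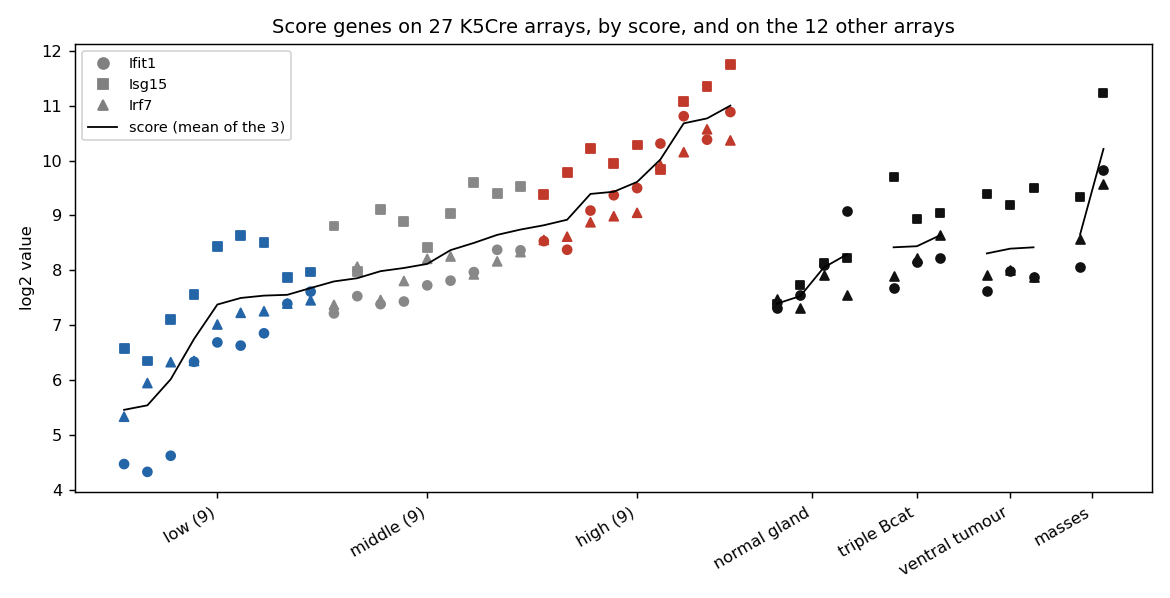
Log2 values (vertical axis) of the score genes Ifit1, Isg15 and Irf7 on each array. The 27 K5Cre arrays are ordered by score (line) and coloured by class, blue for low, grey for middle and red for high, and the 12 other arrays stand at the right by group. The score covers 5.46 to 11.001, and the normal glands sit between 7.39 and 8.29.

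The score ran from 8.82 to 11.001 in the high class, from 7.80 to 8.74 in the middle class and from 5.46 to 7.68 in the low class. At the upper boundary, the array of Q552 (8.82) was the last inside and that of Q190B (8.74) the first outside. At the lower boundary, Q629 (7.68) was inside and T635-1 (7.80) outside. The highest arrays were Q648-1 (11.001), T848 (10.77), T257 (10.68) and Q2164 (10.02), and the lowest were Q535 (5.46), Q520 (5.54), T817 (6.01) and T627 (6.75).

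Several arrays stood apart in ways that touch the classes. The high array of Q648-1 (quadruple 8) had the lowest Epcam of the K5Cre arrays at 8.13, where the other high arrays held 11.06 to 13.01. Epcam encodes an adhesion molecule of epithelium. The low arrays of Q629 and T627 were low in Xist, the RNA of the inactive X chromosome, at 5.72 and 6.999. The normal gland of T627 was also low in Xist, at 5.64, where the other glands held 11.77 to 12.24. The Y-linked gene Eif2s3y stayed between 2.25 and 3.05 on all 39 arrays. Krt8 and Krt18, keratins of luminal epithelium, were at 9.90 or above in both classes. Means of the whole luminal list ran from 8.21, on Q648-1, to 12.09 in the high and from 8.98 to 11.69 in the low arrays. Krt5 lay between 9.44 and 12.57 on the 18 arrays except T627, where it was 5.74. Ctnnb1, the gene of beta-catenin, ran from 12.37 to 13.06 in the high and from 12.65 to 13.39 in the low arrays.

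A model across all 18192 genes other than the score genes compared the classes. A gene was called where its Benjamini-Hochberg adjusted p in limma was under 0.05. By this rule 142 genes were called (0.781%), 113 higher (0.621%) and 29 lower (0.159%) in the interferon-high arrays, with a median difference of -0.0026 over all genes. At least a 2-fold difference was reached by 81 of the genes higher and 4 of those lower. Because the arrays were sorted on interferon genes, these counts describe the sorted arrays and no p of a gene is given. Nothing is read from a list's share of calls beside the background. Counts at an unadjusted p under 0.05 are given below without the share of all genes at that level. Nothing is read from those counts either. Without the high array of Q648-1, 75 genes were called higher and 22 lower. Without the low arrays of Q629 and T627, which are low in Xist, the counts were 187 and 77. With the macrophage and T cell list means as covariates, 60 were called higher and 2 lower, and with those of the squamous and collagen lists 249 and 72.

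The medians of 9 measured interferon genes over the 27 K5Cre arrays ran from 2.56 for Ifnab to 5.04 for Ifna1. Of these type I and II interferon genes, 0 were called in limma and 0 had an unadjusted p under 0.05. Their median difference was 0.14. Ifnb1, the interferon beta gene, ran from 3.83 to 4.94 in the high and from 3.86 to 4.30 in the low arrays. Ifng, the type II interferon of T and NK cells, had a median of 2.90 against 2.80. Its highest value, 6.67, was on the high array of Q648-1, and in the low class it reached 3.21.

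Of 9 genes for interferon receptors and their kinases, 0 were called in limma and 3 had an unadjusted p under 0.05, with a median difference of 0.26. Ifnar1, a chain of the type I receptor, ran from 7.28 to 7.96 in the high and from 6.91 to 7.87 in the low arrays. Its partner chain Ifnar2 differed by 0.60 ± 0.27 (SE, 9 against 9 arrays). Ifnlr1, the type III receptor, differed by -0.43 ± 0.22.

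Of 8 transcription factors of the response, 2 were called higher and the median difference was 0.89. Stat2 ran from 5.51 to 7.22 in the high and from 4.42 to 5.42 in the low arrays, so that the classes did not overlap, and differed by 1.31 ± 0.19. Irf9, which joins STAT2 in the complex that binds the ISRE, ran from 8.70 to 9.56 against 7.54 to 8.76 and differed by 0.98 ± 0.15. Irf1, a factor of the type II response, differed by 1.21 ± 0.34 and was not called, and Irf3, which is activated without new synthesis, by 0.01 ± 0.10.

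Of 15 genes for sensors of foreign nucleic acid and their adaptors, 6 were called higher, with a median difference of 0.68. Zbp1, a sensor of Z-form nucleic acid, ran from 7.54 to 9.44 against 4.98 to 6.82 and differed by 2.43 ± 0.30. Dhx58, which encodes the RNA helicase LGP2, ran from 6.93 to 9.72 against 4.80 to 6.58 and differed by 2.30 ± 0.31. Neither gene overlapped between the classes. Ifih1, the sensor MDA5 of long double-stranded RNA, differed by 1.85 ± 0.31, and Ddx58, the sensor RIG-I, by 1.22 ± 0.22. The adaptor Mavs, on which both signal, differed by 0.10 ± 0.13, and the DNA sensor Cgas by 0.32 ± 0.24.

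Antiviral effectors made up the largest list. Of 44 measured genes, 34 were called higher and 43 had a positive difference, with a median of 1.73. In 11 of them every high array lay above every low array, which held for 0.137% of all genes tested. The range of the list mean was 8.18 to 9.82 (median 8.87) in the high and 6.24 to 7.82 (median 7.43) in the low arrays. The median difference of the 44 genes was 1.59 without the array of Q648-1 and 1.40 with the macrophage and T cell covariates.

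Rsad2, which encodes viperin, an inhibitor of viral replication, ran from 9.31 to 12.30 in the high arrays (median 11.13) and from 6.42 to 8.92 in the low arrays (median 7.62). It differed by 3.33 ± 0.36. Ifit3, a partner of Ifit1, ran from 7.36 to 11.11 (median 9.18) against 4.74 to 6.69 (median 5.74) and differed by 3.40 ± 0.44. Every high array exceeded every low array for both genes.

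Oas2 encodes an enzyme that makes 2'-5' oligoadenylate, the signal of an antiviral RNA decay pathway. It ran from 7.98 to 10.33 against 5.64 to 7.90 and differed by 2.61 ± 0.29. Oasl2, an OAS-like protein, ran from 8.48 to 10.56 against 4.69 to 7.38 and differed by 3.06 ± 0.35. The values of neither gene overlapped. Oas1b, a further member, differed by 0.67 ± 0.12.

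Other effectors spread more widely. Slfn4, a Schlafen gene of myeloid cells, differed by 3.42 ± 0.69, and its values overlapped at 6.34 to 11.55 against 3.83 to 8.45. It was not called with the macrophage and T cell covariates, at 2.83. Mx1, a GTPase that blocks influenza virus, ran from 5.09 to 8.59 against 4.26 to 5.15 and differed by 2.23 ± 0.35. Ifitm3, which blocks viral entry, differed by 0.88 ± 0.20. Ifi44l was near the bottom of the scale at 2.59 to 3.16 and differed by -0.11 ± 0.07.

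All 4 genes of ISGylation, the attachment and removal of ISG15, were called higher, with a median of 1.89. Usp18, which removes ISG15 and dampens the type I receptor, ran from 8.69 to 11.36 (median 9.97) against 4.97 to 7.76 (median 7.10) and differed by 3.35 ± 0.37 without overlap. Herc6, the ligase of ISG15 in mice, differed by 2.33 ± 0.42, the conjugating enzyme Ube2l6 by 1.45 ± 0.33 and the activating enzyme Uba7 by 1.24 ± 0.26. Of the 5 brakes, 0 were called in limma and 3 had an unadjusted p under 0.05. Socs1, an inhibitor of JAK kinases, differed by 0.53 ± 0.22.

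Genes that respond strongly to type II interferon moved with the score too. Of 9 measured GBP and IRG GTPases, which attack intracellular microbes, 8 were called higher, with a median of 2.11. Gbp2 ran from 7.97 to 11.77 in the high and from 5.07 to 8.54 in the low arrays and differed by 2.25 ± 0.53. Igtp differed by 2.37 ± 0.43 and Iigp1 by 2.42 ± 0.56. In 0 of the 9 GTPases were the classes free of overlap.

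Of 7 genes for chemokines and immune regulators, 2 were called higher. Cxcl10, a chemokine for activated T cells, ran from 6.47 to 11.71 (median 9.13) against 4.57 to 6.38 (median 5.82) and differed by 3.08 ± 0.54. The difference was 2.48 without the array of Q648-1, which held the highest value. Cd274, which encodes the checkpoint ligand PD-L1, ran from 5.43 to 9.33 against 4.62 to 6.11 and differed by 2.03 ± 0.42. Cxcl9 differed by 2.29 ± 0.67 and was not called.

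Of 13 genes of antigen presentation on MHC class I, 2 were called higher, Tap1 (1.08 ± 0.22) and Tapbp (1.10 ± 0.25), which carry and load peptides, and 13 of 13 differences were positive with a median of 0.95. B2m, the light chain, ran from 13.47 to 14.20 against 12.75 to 13.56 and differed by 0.54 ± 0.14.

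**Figure D2:**
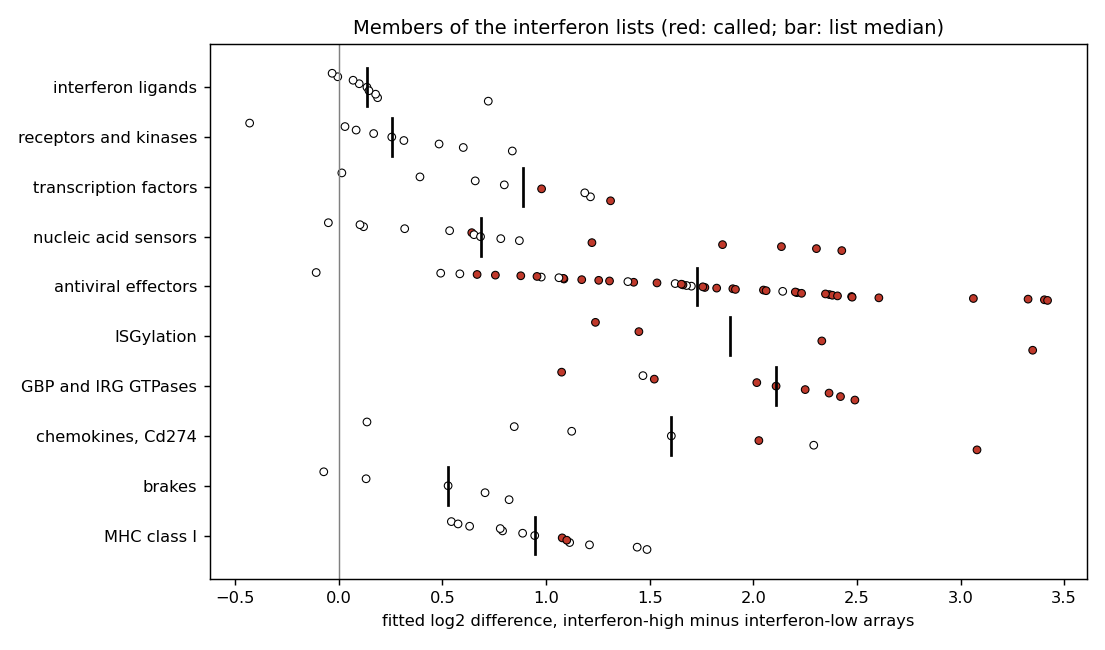
Fitted log2 difference, interferon-high minus interferon-low arrays (9 against 9), of each measured member of 10 interferon lists, ordered by role. Red points were called, open points were not, and bars mark list medians. Medians run from 0.14 for the ligands to 2.11 for the GBP and IRG GTPases.

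Outside the interferon lists 84 genes were called, 55 higher and 29 lower. The lists do not hold every interferon-stimulated gene, so the 55 are not shown to lie outside the response. They include Gm9706 (1.68 ± 0.29), to which the Isg15 probe set of the score is also annotated. Among the 10 largest rises, 3 were in no list. Ddx60, a helicase that promotes RNA sensing, ran from 6.63 to 9.62 against 3.79 to 5.94 and differed by 2.89 ± 0.36. Ifit1bl1, a relative of Ifit1, differed by 2.70 ± 0.41, and probes of such near copies may cross-hybridise. Ms4a4c, a membrane protein gene, differed by 2.89 ± 0.61 and overlapped. It differed by 2.37 and was not called without the array of Q648-1, and by 1.88 with the macrophage and T cell covariates. The 10 genes most like the score over the 27 arrays, by Pearson correlation as a description, were Oasl2 (0.986), Usp18 (0.985), Xaf1 (0.976), Oas1a (0.971), Ddx60 (0.967), Rtp4 (0.964), Rsad2 (0.951), Ifit3 (0.950), Dhx58 (0.941) and Parp12 (0.940).

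The largest falls were smaller than the largest rises. Lrrc4c, a synaptic adhesion gene, ran from 3.00 to 4.19 in the high and from 3.42 to 6.52 in the low arrays and differed by -1.77 ± 0.36. Wasf1, an actin regulator, ran from 3.62 to 7.04 against 6.56 to 8.22 and differed by -1.70 ± 0.38. Klf12, a zinc finger transcription factor, differed by -1.46 ± 0.34. Tnik, a kinase that binds the TCF4 complex of Wnt signalling, ran from 6.18 to 8.23 against 8.03 to 9.41 and differed by -1.04 ± 0.23. Each of the 10 largest falls lost its call in at least 1 alternative. With the mean of all probe sets, Tnik differed by -0.46 and was not called, and Lrrc4c and Klf12 differed by -0.91 and -0.79 and were called. Without the high array of Q648-1, which had the lowest Tnik of its class, Tnik differed by -0.79 and Klf12 by -1.18, and neither was called. Lrrc4c and Wasf1 were not called with the macrophage and T cell covariates, at -1.65 and -1.61.

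Auts2, a regulator of neuronal development, lay lower by 1 log2 unit with an SE of 0.24. The other 5 of the 10 largest falls ranged from -0.88 for Zfp799 to -0.74 for Zfp329, through Zfp770, Zfp266 and Stox2. With the mean of all probe sets, Auts2, Zfp266 and Stox2 were not called, Stox2 differing by -0.37 and Zfp329, still called, by -0.48. Auts2, Zfp799 and Zfp266 were not called without the array of Q648-1, and Auts2 and Stox2 were not called without the arrays of Q629 and T627. Of the 29 genes lower, 6 (20.7%) had a name starting with Zfp, a prefix of zinc finger genes, as did 339 (1.86%) of all genes tested. This prefix was counted after the values were seen. Values of 1 gene, Cbll1, lay lower on every high array than on every low array (0.0055% of genes). Only 3 genes were called lower in a fit of the 18 arrays alone.

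Markers of immune cells were given beside these results, since in bulk tissue fewer cells of a type and less RNA per cell cannot be told apart. Of 86 entries in 10 immune lists, 0 were called in limma and 29 had an unadjusted p under 0.05. The macrophage list differed by a median of 0.76 (11 of 12 positive), with list means of 8.37 to 10.64 in the high and 7.33 to 9.66 in the low arrays. The macrophage genes Adgre1 and Csf1r differed by 0.77 ± 0.34 and 0.73 ± 0.33. The neutrophil list differed by a median of 1.06 (8 of 8 positive) and MHC class II by 0.84 (7 of 7). Their part in the interferon difference was not tested beyond the fit with covariates.

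Lymphocyte markers were low in most arrays. T cell list means ran from 4.47 to 6.97 in the high and from 4.38 to 5.11 in the low arrays, with a median difference of 0.38. The cytotoxic list ran from 4.44 to 7.89 against 4.32 to 5.89, with a median of 0.82. Gzmb, a protease of killer cells, ran from 4.70 to 10.74 against 4.39 to 7.71. The array of Q648-1 held the highest T cell and cytotoxic list means of the high class, and without it the other 8 reached 5.52 and 5.57. Ptprc, the pan-leukocyte gene of CD45, ran from 8.20 to 11.12 against 6.64 to 9.81 and differed by 1.23 ± 0.47. The plasmacytoid dendritic cell list, of a cell type known for making type I interferon, differed by a median of 0.03.

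Epithelial and stromal lists overlapped between the classes. Of 93 entries in 9 tissue lists, 0 were called in limma and 3 had an unadjusted p under 0.05. The median difference was 0.36 for luminal, 0.21 for basal, 0.19 for squamous and 0.26 for collagen genes. Squamous list means covered 5.28 to 12.36 in the high and 4.81 to 12.97 in the low arrays, so that both classes held squamous and non-squamous tissue. Krt5 differed by 0.23 ± 0.67 and Epcam by -0.36 ± 0.48. Skeletal muscle genes were high on 1 array of each class, T852 (list mean 12.27) and Q629 (11.59), and at 7.53 or below on the other 16 of these arrays.

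The pathway lists also had 0 genes called of 54 in limma, 8 at an unadjusted p under 0.05. Wnt targets differed by a median of -0.63 (1 of 10 positive) and p53 targets by -0.44 (0 of 9). Among Wnt targets Rnf43, a negative regulator of the receptor, ran from 4.20 to 8.03 in the high and from 6.06 to 8.68 in the low arrays and differed by -1.27 ± 0.47. Axin2, a standard readout of the pathway, ran from 4.99 to 9.49 against 5.29 to 9.48 and differed by -0.60 ± 0.60. Mki67, a proliferation gene, differed by -0.21 ± 0.27.

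**Figure D3:**
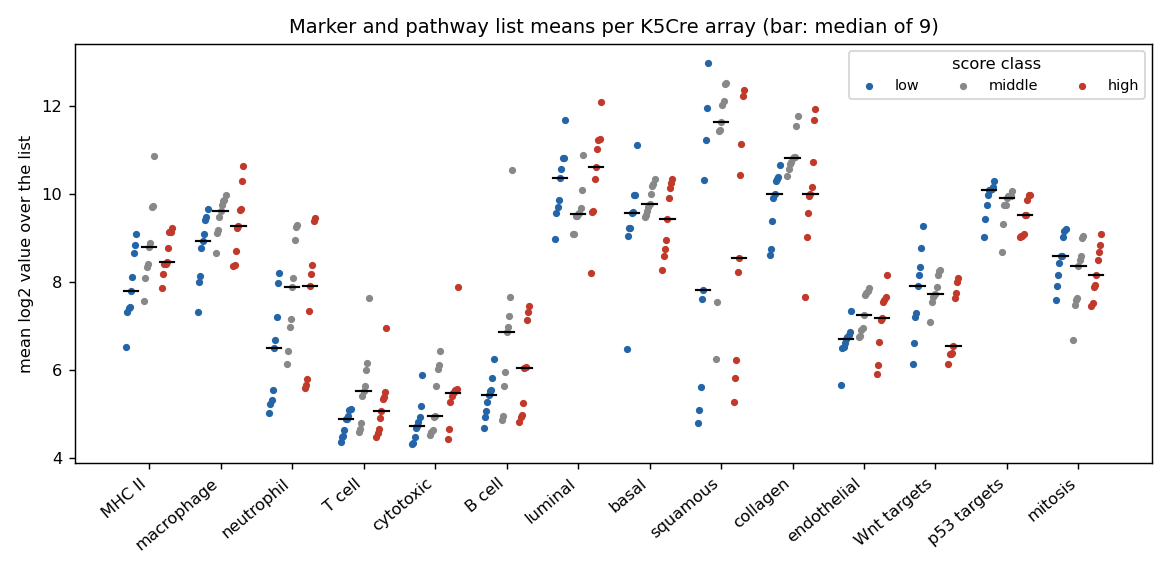
Mean log2 value over each of 14 marker and pathway lists (vertical axis), 1 point per K5Cre array, by score class (blue low, grey middle, red high, 9 arrays each), with bars at the class medians. The classes overlap in every list shown. Wnt target medians are 7.91 in the low and 6.55 in the high class.

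Relations that do not depend on where the classes were divided were tested over all 23 K5Cre animals, each animal's arrays averaged. The effector list mean was set against each of 24 marker and pathway list means by permutation, with adjustment over the 24. By Pearson's r it was related to 7 lists, 5 positively and 2 negatively. Points share the array normalization, and an animal's lists come from the same RNA. Correlations within a genotype were not planned, and each set was adjusted over its own 24 lists.

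The Wnt target mean fell as the effector mean rose. Pearson's r was -0.695 and Spearman's rho -0.695 (permutation, adjusted p = 0.00504 and 0.00456), and r without the 2 animals farthest in effector mean was -0.562. Within the 15 quadruple animals r was -0.637 and rho -0.746 (permutation, adjusted p = 0.0508 and 0.0107). Within the 8 triple K5Cre animals r was -0.732 and rho -0.405 (permutation, adjusted p = 0.256 and 0.717). Without the 2 farthest animals of each genotype r was -0.549 and -0.385. The Wnt list mean left a gap between 6.61 and 7.30. Among the 16 animals above it r was -0.733, and among the 7 below it 0.001. This division was chosen after the values were seen.

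The p53 target list, which holds Mdm2, Cdkn1a and other damage-responsive genes, gave r = -0.64 and rho = -0.669 (permutation, adjusted p = 0.0106 and 0.00552), and -0.597 without the 2 farthest animals. Within the quadruple animals r was -0.421 and rho -0.457 (permutation, adjusted p = 0.189 and 0.165). Within the triple K5Cre animals r was -0.889 and rho -0.952 (permutation, adjusted p = 0.096 and 0.0274). The difference between the 2 genotypes was not tested.

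Positive relations were with immune and vessel markers. The cytotoxic list gave r = 0.633 and rho = 0.679 (permutation, adjusted p = 0.0106 and 0.00552), and r = 0.525 without the 2 farthest animals. Within the quadruple and triple K5Cre animals r was 0.675 and 0.848 (permutation, adjusted p = 0.0466 and 0.118). Checkpoint genes gave r = 0.573 and rho = 0.591 (adjusted p = 0.0172 and 0.0193), endothelial genes r = 0.581 and rho = 0.537 (0.0172 and 0.0364), and MHC class II r = 0.581 and rho = 0.522 (0.0172 and 0.0409), all by permutation. Without the 2 farthest animals these were 0.461, 0.434 and 0.39. Within the quadruple animals they were 0.637, 0.579 and 0.63 (permutation, adjusted p = 0.0508, 0.0616 and 0.0508). Within the triple K5Cre animals they were 0.629, 0.603 and 0.637 (permutation, adjusted p = 0.34 for each). The macrophage list gave r = 0.526 (permutation, adjusted p = 0.0361), but rho was 0.38 (adjusted p = 0.137) and r fell to 0.254 without the 2 farthest animals, so that relation rested on those animals. Within genotypes its r was 0.596 (quadruple) and 0.448 (triple K5Cre), at a permutation adjusted p of 0.0568 and 0.629.

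Proliferation lists were related to the effectors in the quadruple animals alone, a subset that was not planned. There r was -0.759 for mitosis and -0.764 for replication genes (permutation, adjusted p = 0.0102 for each, 15 animals), and -0.796 and -0.864 without the 2 farthest animals. In the 8 triple K5Cre animals r was 0.041 and -0.097. In the planned test over all 23 animals neither list passed, with r of -0.367 and -0.428 (permutation, adjusted p = 0.146 and 0.109). The difference between the genotypes was not tested.

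**Figure D4:**
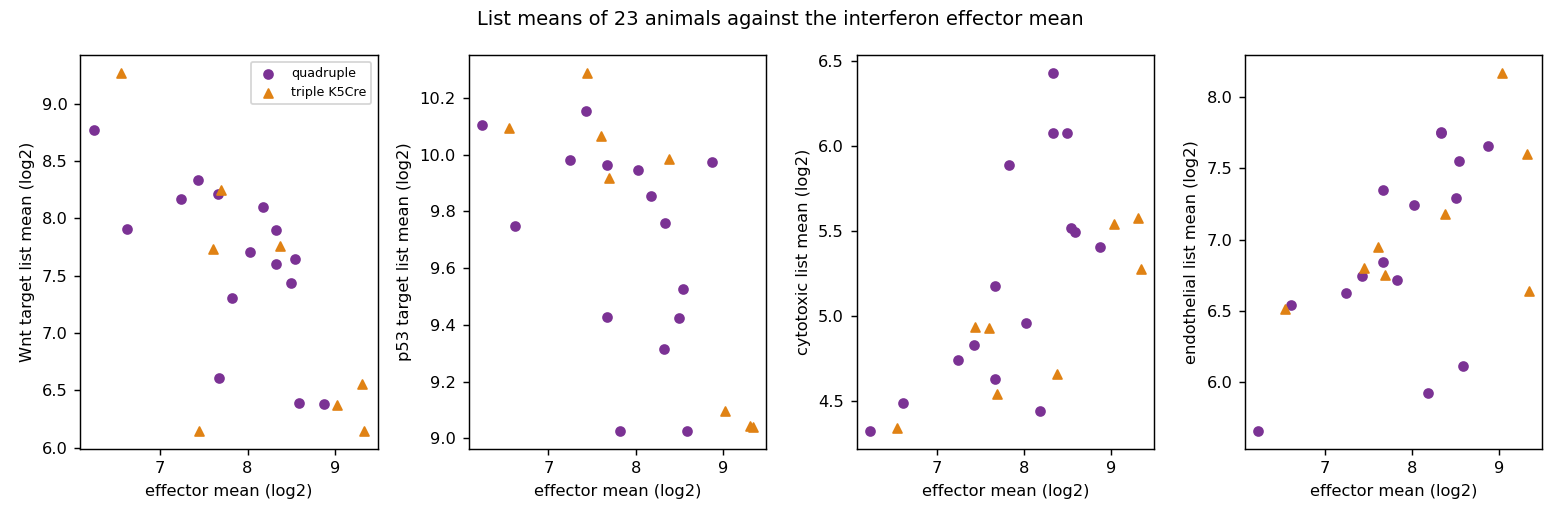
List means (log2, vertical axes) of Wnt targets, p53 targets, cytotoxic and endothelial markers against the effector list mean (log2, horizontal axes), 1 point per animal, for 15 quadruple (purple circles) and 8 triple K5Cre (orange triangles) animals. The Wnt and p53 target means decline with r = -0.695 and -0.64, and the cytotoxic and endothelial means climb with r = 0.633 and 0.581.

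Both genotypes were present in each class. Of the high arrays 5 were quadruple and 4 triple K5Cre, and of the low arrays 7 and 2. With animal Q648, which was in both classes, left out, 4 quadruple and 4 triple K5Cre animals were high and 6 and 2 were low (Fisher's exact test, two-sided p = 0.608). The score was 8.15 ± 1.33 (SD, n = 19 arrays) in quadruple and 8.67 ± 1.74 (SD, n = 8) in triple K5Cre. In a fit of all 39 arrays by label, 0 of 18194 genes (0%) were called between these genotypes in limma. Of 125 interferon-list genes 1 had an unadjusted p under 0.05.

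The arrays outside the K5Cre genotypes were not used to choose the classes. The 4 normal glands had scores of 7.39, 7.53, 8.05 and 8.29. All 9 high arrays lay above every gland and 5 of 9 low arrays below every gland. By the effector list mean, 8 of 9 high arrays lay above the glands, which held 7.84 to 8.26, and 9 of 9 low arrays below them. The classes were sorted on the score, with which the effectors move, so these positions are in part fixed by that choice. Adipocyte list means were 12.66 to 13.04 in the glands and 4.67 to 8.95 in the high and low arrays. The part of this difference in tissue was not tested. Animals T627 and T635 gave both a gland and a K5Cre breast array. The breast array scored 6.75 against 7.39 for the gland in T627, and 7.80 against 8.05 in T635.

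The 3 triple Bcat arrays scored 8.42 to 8.64 and the 3 ventral tumours 8.31 to 8.42, ranges that lie in the middle class. The 2 masses differed, at 8.66 and 10.21, and the second would rank within the high class. Over the 9 animals of these 12 arrays, of which T627 and T635 also gave K5Cre arrays, the effector mean followed the score with r = 0.95 and rho = 0.867 (exact permutation, adjusted p = 0.00728 and 0.0135 over 3 lists). Without the 2 animals farthest in score r was 0.729. For MHC class I r was 0.819 (exact permutation, adjusted p = 0.0458) and rho 0.467 (0.319). It was 0.482 without the 2 farthest animals and so rested on those. For the GBP and IRG GTPases r was 0.686 (exact permutation, adjusted p = 0.0967) and rho 0.167 (0.678), and 0.0495 without the 2 farthest.

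Few interferon genes were called between the labelled groups outside K5Cre and normal gland. The fit by label took in all arrays, so its standard errors rest in part on the spread within the K5Cre arrays. Interferon genes varied widely among those arrays, and the groups compared here are small. A gene that was not called is therefore not shown to be unchanged. In triple Bcat against gland 2 of 125 were called, with backgrounds of 1.74% of genes higher and 5.38% lower. Slfn4 rose by 4.57 ± 1.46 (limma, adjusted p = 0.0494) and Ifi27 fell by 1.63 ± 0.38 (adjusted p = 0.00627). In the Bcat +/- masses and ventral tumours against gland 5 were called, with backgrounds of 5.69% and 7.83%. Aim2 (1.70 ± 0.51), Slfn1 (1.77 ± 0.49) and Socs3 (1.47 ± 0.48) rose, and Ifi27 (-1.56 ± 0.33) and Ifi27l2a (-2.96 ± 0.96) fell, at limma adjusted p of 0.0221, 0.0141, 0.0365, 0.00183 and 0.0354. Both comparisons share the 4 gland arrays. Without 1 array at a time the first count ranged from 0 to 2 and the second from 1 to 5, the latter falling to 1 without the mass C57ms-0.

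Of the K5Cre animals, 3 gave more than 1 array. Q648 gave 3 arrays that fell into all 3 classes, with scores of 11.001 (Q648-1), 7.86 (Q648-3) and 7.50 (Q648-2), a range of 3.51. Rsad2 was 12.30, 8.95 and 7.89 on them, and Cxcl10 11.71, 5.76 and 6.13. Gbp2 followed at 11.77, 8.94 and 7.47, so that the first array was the highest for each of these genes.

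Tissue markers also differed among the 3 arrays of Q648. Epcam was 8.13, 12.63 and 10.88 on Q648-1, Q648-3 and Q648-2, and Cdh1, the gene of E-cadherin, 8.91, 11.52 and 11.89. Krt8 was 13.21, 12.90 and 10.54 and Ptprc 11.12, 9.57 and 9.22. The part of these differences in the interferon values was not tested. The 2 arrays of Q190 differed in score by 0.097 and the 2 of Q2154 by 0.0579, and all 4 were in the middle class. The labels do not say whether arrays of an animal came from separate pieces of tissue.

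**Figure D5:**
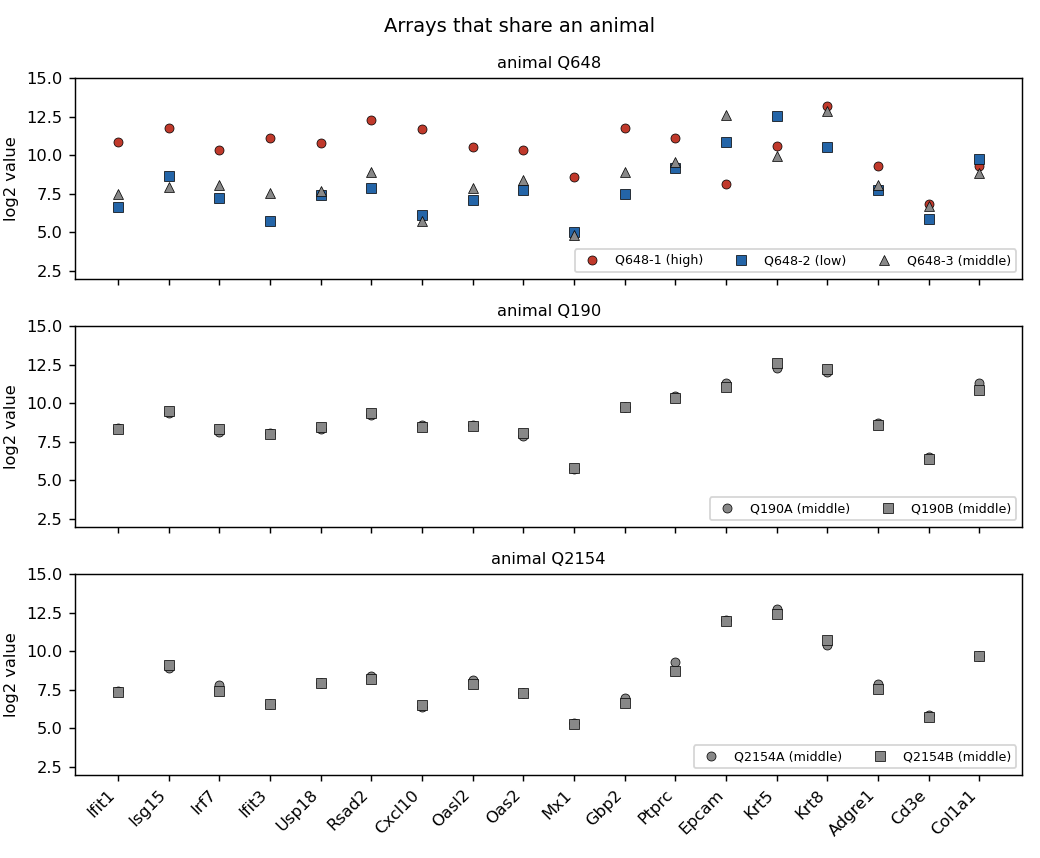
Log2 values (vertical axis) of 11 interferon genes and 7 tissue and immune markers on the arrays of the 3 K5Cre animals with more than 1 array, coloured by class (red high, grey middle, blue low). Scores in Q648 span 3.51, whereas the paired arrays of Q190 and Q2154 nearly coincide, 0.097 and 0.0579 apart.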

How the data were processed

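Per the labels' protocols, biotinylated cRNA of 39 tissue samples was made by the 3' IVT Express method. The deposited values are log2 signals of 45101 probe sets, made with RMA per the submitters' processing notes. RMA corrects background, normalizes between arrays and summarises probes. No version of it was known here, and low values were not separated from background. Array medians ran from 5.10 to 5.27, and 0 columns were unused.

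The platform annotation and a RefSeq table of GRCm38.p6 gave the names of probe sets: 34958 had 1 gene, 932 several and 9211 none. The brightest probe set stood for each of 18194 genes. For the score, Isg15 used a probe set of several genes. Promoter sequences are RefSeq's.

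The members and the 37 gene lists (364 of 403 entries measured) were chosen with earlier results of these data known. Groups came from the labels and animals from title identifiers. All 27 K5Cre arrays entered a limma fit with a mean per class, the animal as a random block (consensus correlation 0.272) and an intensity trend, and genes were called at an adjusted p under 0.05. Fitted differences need not equal differences of means. A fit of all 39 arrays by label had a correlation of 0.329. P-values of the fits rest on the spread between arrays, with 1 correlation for all arrays that share an animal. The 3 ventral tumours of 1 mouse thus entered as 3 arrays. Permutation p-values take each animal as 1 point. Lists were correlated over animals with 100000 permutations, or exactly for the 9 animals outside K5Cre, a test added after the data were seen. On simulated data of 18194 genes for high minus low, the fit recovered 68 of 100 genes changed by 1 log2 unit and 96 of 100 changed by 2, with 10 false calls.

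Named genes are the 10 that rose and the 10 that fell most among called genes without clone or predicted names, up to 4 members of each list or any whose role is explained, Ctnnb1, Krt5, Mki67, Epcam, Ptprc and Axin2, and the 10 genes most like the score. The alternatives tried were other blocks, sample sets, normalizations, filters, covariates and probe set rules. Software was limma 3.58.1 in R 4.3.3, and scipy 1.17.1, matplotlib 3.10.9, pandas 2.3.3 and numpy 2.4.6 in Python 3.11.15.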

Additional observations from a re-analysis of the deposited data

Results flagged for a closer look

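Of 124 groups of arrays, 14 had an array whose gap to its neighbour was large for the range of the group. Most groups were a gene or list mean on the 9 arrays of the high or low class. The rest were the score and the effector mean in the normal glands and in the triple K5Cre arrays. Chance alone flags about 1 in 20 such groups. These arrays were looked for in the list means and named genes.

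The high array of Q648-1 (quadruple 8) accounted for 6. Its mean was the highest of the class for transcription factors of the interferon response (8.61, the others 7.13 to 7.80), T cell genes (6.97, the others 4.47 to 5.52), cytotoxic genes (7.89, the others 4.44 to 5.57) and checkpoint genes (5.78, the others 4.08 to 4.88). It was the lowest for Tnik (6.18, the others 7.35 to 8.23) and Epcam (8.13, the others 11.06 to 13.01).

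Muscle genes were high on the high array of T852 (12.27) and the low array of Q629 (11.59), and Q629 was also the lowest low array for Klf12 (6.09). The low array of T627 was the lowest for Krt5 (5.74) and the basal list (6.49, the others 9.05 to 11.10), and the highest for the interferon brakes (8.37). The low array of Q535 had the lowest endothelial mean (5.66), and that of Q648-2 the lowest Auts2 (7.72).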

How the results depend on the processing

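The number of effectors called higher stayed within 1.5 times of 34 in every alternative (23 to 41 genes), and 43 of 44 effectors were positive in each fit except the one that dropped the dimmest genes, where 41 of 41 were. The counts over all genes moved more. From 113 higher, they came to 53 with the 18 arrays alone (where the block correlation of the full fit was used), 235 with array weights, 403 with the score as a continuous covariate, 60 with macrophage and T cell covariates, 249 with squamous and collagen covariates, 75 without the array lowest in Epcam and 187 without those low in Xist. From 29 lower, they came to 19 with no block, 69 with 1 array per animal, 3 with the 18 arrays alone, 50 with genotype as a covariate, 148 with array weights, 19 with the mean of all probe sets, 217 with the continuous score, 2 and 72 with the 2 pairs of covariates and 77 without the arrays low in Xist. Of the 142 genes called, 138 were also called with array weights, 54 with the 18 arrays alone and 59 with the macrophage and T cell covariates. Of the 20 genes with the largest rises and falls, 8 kept their call in all 14 alternatives and 0 reversed, with 40 calls lost among 279 values. Interferon genes called in triple Bcat against gland were 1 without the eBayes trend and 1 with the mean of probe sets, and 0 to 2 without 1 array at a time. In the Bcat +/- lesions they were 1 to 5 without 1 array at a time. Against 7 lists related to the effector mean by Pearson's r over all animals, 3 passed by r in the quadruple animals alone and 0 in the triple K5Cre animals alone. The 3 were cytotoxic, which is among the 7, and mitosis and replication, which are not. By rho the Wnt and checkpoint lists also passed in the quadruple animals (permutation, adjusted p = 0.0107 for each). The p53 list passed by rho in the triple K5Cre animals (permutation, adjusted p = 0.0274). Neither subset was planned. Except for the smaller number of arrays or animals in some, the cause was not tested. No paired analysis was possible because the high and low classes share only 1 animal, Q648, and the labelled groups compared share no animal. The animal was a block instead. The classes are defined by the measured score, arrays carry no detection calls, and precision is limited by the number of animals.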

Other observations

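For skeletal muscle and hypoxia genes the measures of correlation differed. Over the 23 K5Cre animals the muscle list mean had r = 0.185 with the effector mean but rho = 0.563 (permutation, adjusted p = 0.48 and 0.0283 over 24 lists). The hypoxia list had r = 0.221 (permutation, adjusted p = 0.399), and 0.635 without the 2 animals farthest in effector mean. Of 10 hypoxia genes 10 were positive in interferon-high minus interferon-low arrays, with a median difference of 0.41, and 0 were called in limma, with 3 at an unadjusted p under 0.05.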
